A study of Mus musculus with 34 samples.

Results

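Hox genes encode homeodomain transcription factors and were read here in mouse spinal cord, in 34 Affymetrix arrays of wild-type (WT) mice and of mice without trkB.T1 (KO), the truncated form of the receptor TrkB that lacks the kinase domain. The members are every gene of the probe annotation named Hox with a cluster letter a to d and a number. This gave 33 genes of 18193 with probe sets, read by 48 probe sets. Where a gene had several probe sets, the one with the highest mean over all arrays stood for it, which concerned 11 genes. Sham mice were operated on without harm to the cord, and the others were taken 1, 3 or 7 days after their cord was injured. Both genotypes had 4 arrays in the sham group and 4 on day 7, while day 1 had 5 from WT and 4 from KO mice and day 3 had 4 and 5. The labels used here give no strain, sex or age and no further allele. They do not say which level of the cord was taken, or that each array is a separate animal. The p-values therefore measure the spread between samples, which may be technical, and the cord level and the group cannot be told apart.

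The mammalian Hox genes lie in 4 clusters, and genes at the same place in different clusters, called paralogs, share a number. In the embryo, genes with low numbers are switched on first and reach far forward, and genes with higher numbers start later and further back, so that the order in a cluster mirrors the order along the body. In the spinal cord, paralogs 4 to 7 mark mainly the cervical and brachial cord, paralogs 8 and 9 the thoracic cord, and paralogs 10 to 13 the lumbar and sacral cord. Each set helps to give motor neurons the identity of its level, and much of the pattern is kept in the adult through Polycomb and trithorax chromatin regulators.

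The Hoxd cluster is shown because neighbours in it moved in opposite directions in WT cord, and the 250 bases before the start of 4 of its genes are printed. They come from RefSeq promoters of build GRCm38.p6, in which 19 of the 33 genes had an entry. In WT cord after injury, Hoxd10 was higher than in sham cord on all 3 days and Hoxd9 at days 1 and 7, while Hoxd8 and Hoxd1 were lower on all 3 days. Both Hoxd9 calls were lost without WT sham replicate 3. The Hoxd10 calls at days 3 and 7 were lost in 6 and 1 of 34 fits that left out 1 array, and the Hoxd8 call at day 1 in 6. Hoxd3, whose window lies between those of Hoxd8 and Hoxd1, was also lower on all 3 days, with its day 1 call lost in 6 fits. Its window is not printed. The Hoxd10 and Hoxd9 starts are 5872 bases apart, those of Hoxd9 and Hoxd8 6852 bases, and those of Hoxd8 and Hoxd1 58365 bases. All lie on the plus strand of chromosome 2, at chr2:74691641-74691890 for Hoxd10, chr2:74697513-74697762 for Hoxd9, chr2:74704365-74704614 for Hoxd8 and chr2:74762730-74762979 for Hoxd1. Capitals mark AGGTCA, the core of retinoic acid receptor sites, and CCAAT, the box bound by NF-Y, on either strand.
Hoxd10: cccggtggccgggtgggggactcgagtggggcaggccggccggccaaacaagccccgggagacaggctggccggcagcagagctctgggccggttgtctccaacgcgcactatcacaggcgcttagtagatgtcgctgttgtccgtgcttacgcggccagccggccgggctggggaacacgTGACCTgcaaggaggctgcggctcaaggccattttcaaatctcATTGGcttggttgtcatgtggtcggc
Hoxd9: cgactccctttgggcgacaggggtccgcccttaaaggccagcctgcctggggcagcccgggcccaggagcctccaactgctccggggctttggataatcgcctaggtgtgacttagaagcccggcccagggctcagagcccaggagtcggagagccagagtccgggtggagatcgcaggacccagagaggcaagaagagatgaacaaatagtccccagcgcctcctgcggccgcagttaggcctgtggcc
Hoxd8: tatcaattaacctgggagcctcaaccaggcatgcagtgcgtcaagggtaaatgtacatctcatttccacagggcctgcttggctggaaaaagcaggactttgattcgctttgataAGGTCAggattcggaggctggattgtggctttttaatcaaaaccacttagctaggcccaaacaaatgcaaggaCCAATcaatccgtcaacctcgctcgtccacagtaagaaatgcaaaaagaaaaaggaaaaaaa
Hoxd1: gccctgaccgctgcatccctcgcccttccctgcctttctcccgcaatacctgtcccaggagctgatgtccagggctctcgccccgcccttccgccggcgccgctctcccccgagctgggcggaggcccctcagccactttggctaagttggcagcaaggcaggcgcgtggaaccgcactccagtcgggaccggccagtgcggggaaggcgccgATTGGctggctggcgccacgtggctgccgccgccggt
The search covered 4 motifs on both strands, and no 2 matches overlapped in these windows. AGGTCA is in the windows of Hoxd10 and Hoxd8 and in 14.0% of 32851 promoter windows of the same length. CCAAT is in those of Hoxd10, Hoxd8 and Hoxd1 and in 33.8% of all windows. TAATTA, the homeodomain core, is in none of the 4 and in 4.84% of all windows, and TATAAA, the TATA box, is in none and in 12.4%. The 21 Hox windows held a median of 13 CG pairs, against 6 over all windows, and a median of 59.2% G and C, against 52.4%. The Hox windows ranged from 2 to 35 CG pairs. A match of letters is a description of the window and says nothing of binding.

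The deposited values are on the log2 scale, from 2.17 to 15.9, and a value under log2 4 is taken as not well above background. All values below are log2 values or log2 differences unless a fold is named. The value after ± is the SD of a group or the standard error of a difference, and a gene passed a comparison when its limma p-value, adjusted by Benjamini-Hochberg over 11993 genes, was under 0.05. Neuron, oligodendrocyte and astrocyte markers were above background on every array, for 16 of 16, 7 of 7 and 8 of 8 genes. Of 14 genes that mark forebrain or midbrain, 11 were above background on no array, including Otx2, Emx1 and Tbr1. The probe sets of Ntrk2, the targeted gene, that read low in KO cord stood at means of 10.39 and 9.72 in WT sham cord and 4.10 and 2.83 in KO cord at day 1. The library labelled KO sham replicate 2 goes against its label there, with 9.46 and 8.59, and the counts of calls that include it are also given without it.

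Of the 33 Hox genes, 23 were above log2 4 on at least 4 arrays and were tested. The other 10 were above it on no array. They were Hoxa2 and Hoxb1, which act in the hindbrain, Hoxb7, and 7 genes of paralogs 11 to 13, namely Hoxa11, Hoxa13, Hoxb13, Hoxc13, Hoxd11, Hoxd12 and Hoxd13. The highest value that Hoxa11 reached was 3.21. All 3 measured genes of paralog 10 were tested, and none of paralogs 11 to 13. Of 3 probe sets with 2 Hox symbols, the one for Hoxb8 and Hoxb7 had a mean of 8.85 in WT sham cord and 7.46 at day 1, was not tested, and cannot be told apart between the genes.

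**Figure D1:**
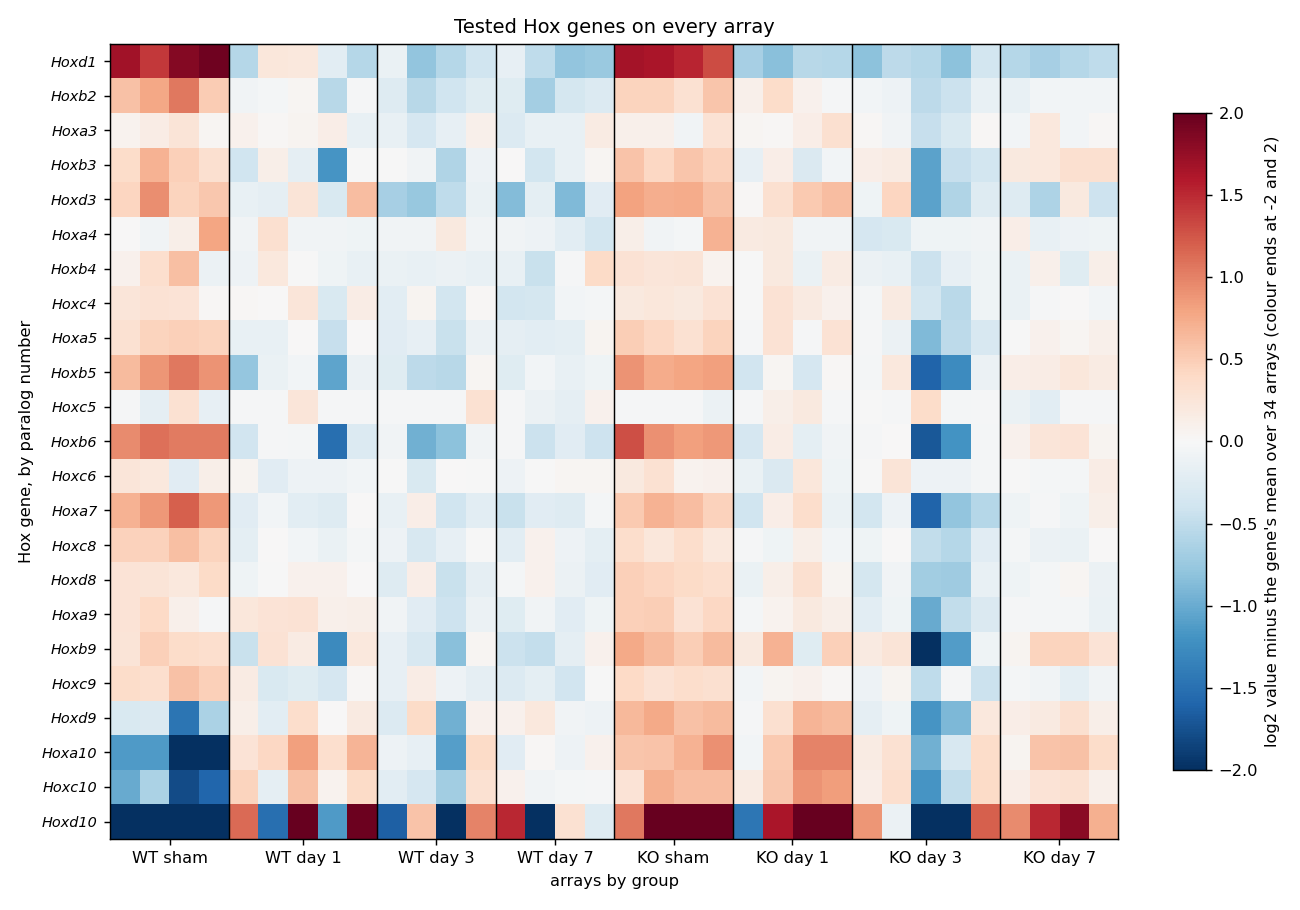
Each row is one of the 23 tested Hox genes, ordered by paralog number, and each column is an array, grouped by genotype and time. Colour gives the log2 value minus the gene's mean over the 34 arrays, cut at -2 and 2. Paralogs 1 to 9 other than Hoxd9 are mostly above their means on sham arrays of both genotypes, while Hoxd9, Hoxa10, Hoxc10 and Hoxd10 are below theirs on the 4 WT sham arrays and above on the 4 KO sham arrays.

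The genes of paralog 10 had their lowest group means in WT sham cord. These genes pattern lumbar motor neurons, and Hoxd9, which lies next to Hoxd10, followed them. Hoxa10 read 6.89, 6.89, 4.76 and 5.88 on the 4 WT sham arrays and 8.58, 8.59, 8.72 and 8.94 on the 4 KO sham arrays. The WT sham arrays were the 4 lowest of all 34. Injured WT cord averaged 8.53 ± 0.23 (day 1), 7.78 ± 0.63 (day 3) and 7.97 ± 0.14 (day 7), and injured KO cord 8.64 ± 0.49, 7.93 ± 0.55 and 8.42 ± 0.24, with n = 4 or 5 as above. The day 3 groups had the lowest of the injured arrays, at 6.92 on WT replicate 3 and 7.06 on KO replicate 3.

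Hoxc10 read 6.90, 7.28, 6.11 and 6.33 on the WT sham arrays and 8.19, 8.62, 8.52 and 8.53 on the KO sham arrays. The ranges did not overlap, and the WT sham arrays held 4 of the 6 lowest ranks. Its means at days 1, 3 and 7 were 8.17 ± 0.31, 7.67 ± 0.42 and 7.90 ± 0.06 in WT cord and 8.52 ± 0.34, 7.74 ± 0.66 and 8.11 ± 0.10 in KO cord.

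Hoxd10 read 2.34, 2.43, 2.17 and 2.34 on the WT sham arrays, none above background, and 6.73, 8.19, 8.33 and 8.10 on the KO sham arrays, all above it. In injured cord it varied widely within groups. It read 6.80, 4.16, 8.32, 4.54 and 7.63 at day 1 in WT cord and 4.23, 7.30, 8.36 and 8.06 in KO cord. At day 3 it read 4.04, 6.23, 2.34 and 6.66 in WT cord and 6.55, 5.55, 2.58, 2.17 and 6.86 in KO cord. Both day 3 groups thus held arrays at the WT sham level beside arrays far above it. At day 7 it read 7.18, 3.54, 5.98 and 5.41 in WT cord and 6.62, 7.18, 7.47 and 6.38 in KO cord.

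Hoxd9, a gene at the border of the thoracic and lumbar codes, read 7.87, 7.89, 6.72 and 7.55 on the WT sham arrays and 8.84, 8.94, 8.76 and 8.81 on the KO sham arrays. The KO sham arrays were all above the WT sham arrays. Its means at days 1, 3 and 7 were 8.27 ± 0.21, 7.99 ± 0.58 and 8.21 ± 0.15 in WT cord and 8.58 ± 0.33, 7.75 ± 0.59 and 8.37 ± 0.10 in KO cord.

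**Figure D2:**
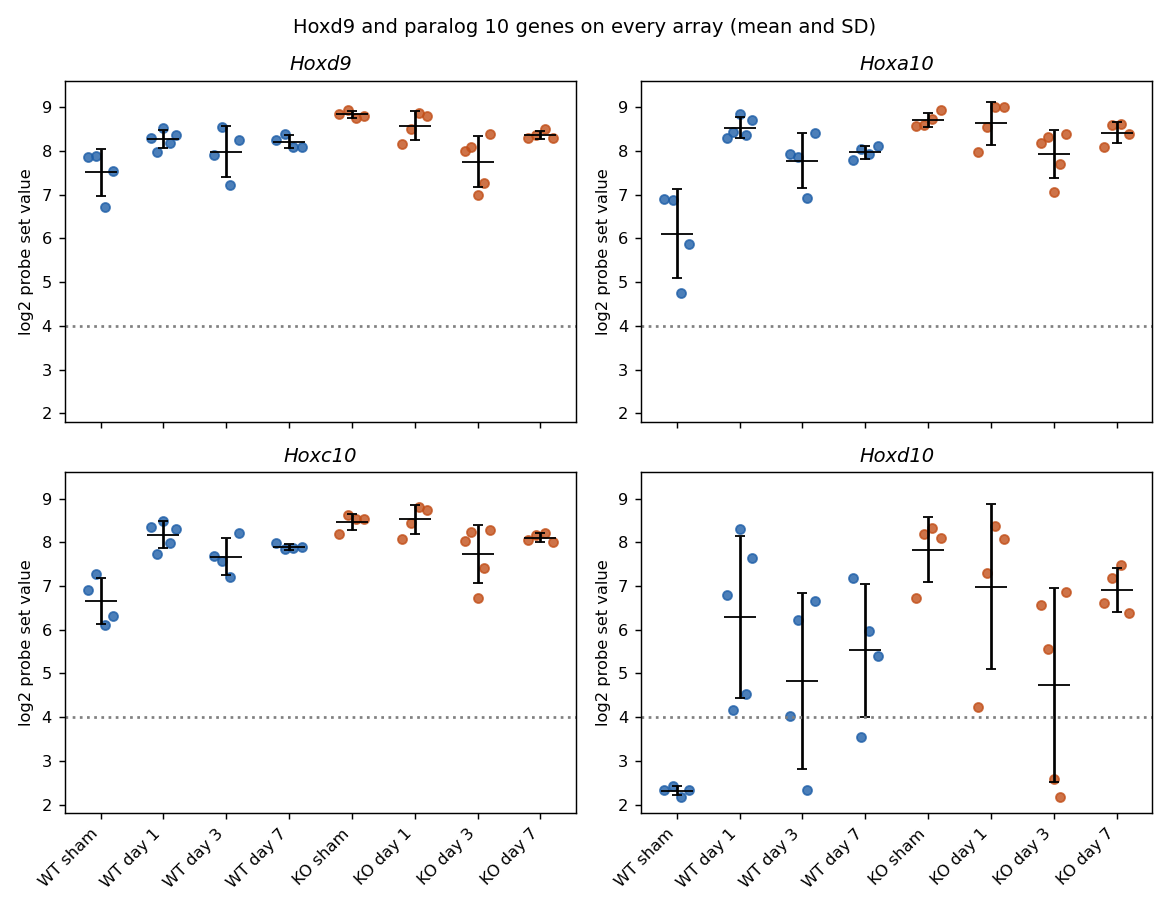
Log2 values of Hoxd9, Hoxa10, Hoxc10 and Hoxd10 on every array (points, WT blue and KO orange), with each group's mean and SD (bars, n = 4 or 5) and a dotted line at log2 4. WT sham cord has the lowest mean in all 4 panels, and Hoxd10 is under the line on all 4 WT sham arrays.

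In sham cord, 4 of the 23 tested Hox genes were higher in KO than in WT cord and none was lower. They were the 3 tested genes of paralogs 10 to 13 and Hoxd9, 1 of the 6 tested genes of paralogs 8 to 9. Of all genes, 8 passed in this comparison (0.0667% of genes tested), 7 of them higher (0.0584%) and 1 lower (0.00834%). Hoxa10 was 6.08-fold higher (2.61 ± 0.35, limma adjusted p = 0.000191) and Hoxc10 3.51-fold (1.81 ± 0.27, adjusted p = 0.00088). Hoxd10 was at least 14.3-fold higher, with the WT sham arrays counted at log2 4 and the KO sham arrays as measured (5.51 ± 1.08 on the deposited values, limma adjusted p = 0.0331). Hoxd9 was 2.51-fold higher (1.33 ± 0.26, adjusted p = 0.0352). The sham ranges did not overlap for 7 of the 23 Hox genes, against 5.07% of all genes, namely these 4 and Hoxb9 with KO higher and Hoxa7 and Hoxc8 with KO lower. The other genes that passed were Cd59a, a complement inhibitor, Egr2, a Schwann cell transcription factor, and the transporters Slc39a8 and, lower in KO cord, Slc34a3.

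Neighbouring genes of the code gave much smaller differences in sham cord. Hoxa9, one paralog number lower than Hoxa10, differed by 0.23 ± 0.12 and did not pass (limma adjusted p = 1). Hoxb9 differed by 0.27 ± 0.36, Hoxc9 by -0.10 ± 0.11 and Hoxd8 by 0.12 ± 0.12. The 5 genes of paralogs 1 to 3 ranged from -0.29 to 0.12 and the 9 of paralogs 4 to 7 from -0.33 to 0.08. Hoxa7 at -0.33 ± 0.19, Hoxb2 at -0.29 ± 0.13 and Hoxc8 at -0.20 ± 0.09 were the lowest, and none passed.

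The sham difference rests on 8 arrays and some of its calls on the spread taken from the other groups. Hoxa10 and Hoxc10 passed in all 34 fits that left out 1 array. Hoxd9 lost its call in 6 of them and Hoxd10 in 7, so that 2 of the 4 passed without WT sham replicate 3 or 4 or without KO sham replicate 2, 3 or 4. Fitted on the 8 sham arrays alone, 1 passed, Hoxd10. With values under 4 set to 4, Hoxd10 differed by 3.83 and did not pass (adjusted p = 0.0977). Without KO sham replicate 2, Hoxa10 differed by 2.64 and Hoxc10 by 1.76, and Hoxd9 at 1.29 (adjusted p = 0.0904) and Hoxd10 (adjusted p = 0.0768) did not pass. The other Hoxa10 probe set was under log2 4 on every array, and averaging it in lowered the Hoxa10 difference to 1.30, which passed. KO sham replicate 2 read 8.59, 8.62, 8.19 and 8.94 for Hoxa10, Hoxc10, Hoxd10 and Hoxd9, beside 8.58, 8.53, 8.10 and 8.84 on the nearest other KO sham array.

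Markers of muscle and nerve root were read in the sham groups too, and the ranges of their array means overlapped. The mean of 14 skeletal muscle genes ran from 3.64 to 8.72 on WT sham arrays and from 7.25 to 10.33 on KO sham arrays, with a median KO minus WT difference of 3.14 and none of 14 passing. On KO arrays at days 1 and 7 that mean was 3.55 to 6.18 and 4.19 to 5.19, and Hoxa10 there was 7.97 to 9.01 and 8.08 to 8.61. WT sham replicates 2 and 4, with muscle means of 8.72 and 8.05, had Hoxa10 at 6.89 and 5.88, and replicates 1 and 3, with 3.80 and 3.64, had it at 6.89 and 4.76. Schwann cell and nerve root genes averaged 6.20 to 6.44 on WT sham arrays and 6.19 to 7.53 on KO sham arrays, and 1 of 9, Egr2, passed. KO sham replicate 2 was at 6.19 on this list while its Hoxa10 was at 8.59. The mean of the 16 neuron genes was 12.11 to 12.19 in WT and 12.12 to 12.25 in KO sham cord. The part of muscle or nerve root in the Hox differences was not tested.

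After injury, Hoxa10, Hoxc10, Hoxd10 and Hoxd9 rose in WT cord, while all other Hox genes that passed fell. These 4 are called the caudal genes below. Hoxd9 is included for its response and not for its number, since Hoxa9, Hoxb9 and Hoxc9 passed as higher on no day in WT cord. All WT comparisons and the sham comparison of the genotypes share the 4 WT sham arrays, so they are not independent of each other. At day 1, 15 of 23 Hox genes passed (59.5% of all genes did), 4 higher (27.1%) and 11 lower (32.5%). At day 3, 18 passed (66.9%), 3 higher (29.5%) and 15 lower (37.4%), and at day 7 18 passed (59.1%), 4 higher (25.8%) and 14 lower (33.3%). The genes that rose were Hoxa10, Hoxc10 and Hoxd10 on all 3 days and Hoxd9 at days 1 and 7. Hoxa10 rose by 2.43 ± 0.33 at day 1 (limma adjusted p = 5.61e-07), 1.67 ± 0.35 at day 3 and 1.86 ± 0.35 at day 7. Hoxc10 rose by 1.52 ± 0.25, 1.02 ± 0.27 and 1.24 ± 0.27 on the same days (adjusted p from 1.33e-05 to 0.0015).

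Hoxd10 rose at least 4.88-fold at day 1, 1.76-fold at day 3 and 2.88-fold at day 7 in WT cord, with sham arrays counted at log2 4 and injured arrays as measured (adjusted p of 0.00164, 0.0423 and 0.0122 in limma). Its injured and sham ranges overlapped at day 3 and not at days 1 and 7, and the same was true of Hoxc10. Of all genes, 53.2%, 57.5% and 57.5% did not overlap at days 1, 3 and 7. With values under 4 set to 4 Hoxd10 passed at day 1 and not at days 3 and 7 (adjusted p = 0.23 and 0.118). Its day 7 call was lost without WT day 7 replicate 1 (2.65, adjusted p = 0.0525). The day 3 call was also lost in 6 fits that left out WT day 3 replicate 2 or 4 or any 1 WT sham array, with values from 1.88 to 2.53. Hoxd9 rose by 0.76 ± 0.25 at day 1 and 0.70 ± 0.26 at day 7 (adjusted p = 0.0106 and 0.0237) and stood at 0.48 ± 0.26 at day 3, which did not pass. Without WT sham replicate 3 its differences were 0.50 and 0.44 and did not pass, and without WT day 7 replicate 2 the day 7 value of 0.64 did not either, and without WT day 3 replicate 3 its day 3 value was 0.73 and passed.

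In KO cord no Hox gene passed as higher. At day 1, 10 of 23 passed (51.1% of all genes), all of them lower (27.3%, with 23.7% of all genes higher). At day 3 21 passed (69.7%), all of them lower (38.8%, with 30.9% higher), and at day 7 11 passed (54.5%), all of them lower (31.0%, with 23.5% higher). Hoxa10 differed from KO sham cord by -0.07 ± 0.35 at day 1 and -0.29 ± 0.35 at day 7, and Hoxc10 by 0.06 ± 0.27 and -0.36 ± 0.27. Hoxd10 differed by -0.85 ± 1.08 and -0.92 ± 1.08, and Hoxd9 by -0.26 and -0.47. None of these passed. With only the groups compared in the fit, Hoxc10 and Hoxd9 passed as lower at day 7 (limma adjusted p = 0.0121 and 0.000212). With array weights Hoxd9 passed at day 7 too (-0.46, limma adjusted p = 0.0118). At day 3 Hoxa10 fell by 0.78 ± 0.33, Hoxc10 by 0.72 ± 0.25 and Hoxd10 at least 5.43-fold, with its dim day 3 arrays counted at log2 4 and the sham arrays as measured (adjusted p of 0.0376, 0.0128 and 0.00864 in limma). Hoxd9 fell by 1.09 ± 0.25 (adjusted p = 0.000346).

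The KO counts depended on single arrays at day 1. There, 4 genes passed without KO day 1 replicate 1 and 5 without KO sham replicate 1, against 10 in all. Without KO sham replicate 2, 7, 20 and 10 genes passed at days 1, 3 and 7. At day 3 the fall of Hoxa10 was 0.56 without KO replicate 3 and did not pass (adjusted p = 0.135), and that of Hoxc10 was 0.47 (adjusted p = 0.0669). The Hoxa10 call was also lost without KO day 3 replicate 4 or KO sham replicate 2, 3 or 4, with differences from -0.81 to -0.70. With array weights, Hoxa10, Hoxc10 and Hoxd10 did not pass at day 3 (0.53, 0.37 and 1.86 lower). KO day 3 replicates 3 and 4 had the lowest means of the 16 neuron genes of all injured arrays, at 10.43 and 10.61, and replicate 3 had the highest muscle mean, 13.19.

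The responses of the genotypes differed past the threshold for 1 Hox gene. The day 1 response of Hoxa10 was lower in KO than in WT cord by 2.50 ± 0.48 (limma adjusted p = 0.0141), 1 of 17 genes that passed (0.142%). It did not pass without KO day 1 replicate 1 (-2.28, adjusted p = 0.0511) or with only the 4 groups compared in the fit (adjusted p = 0.0606). Hoxc10 differed by -1.46 ± 0.37 (adjusted p = 0.143) and passed with array weights or without KO day 3 replicate 3 (adjusted p = 0.0217 and 0.0392). Hoxd9 differed by -1.02 ± 0.36 (adjusted p = 0.494). Hoxd10 did not pass on any day with the settings used throughout. Its differences in response are not given because all its WT sham arrays were under background. At day 3 limma called no gene (0.00%). There Hoxa10 differed by -2.45 ± 0.48, Hoxc10 by -1.74 ± 0.37 and Hoxd9 by -1.56 ± 0.36. Without WT day 3 replicate 3 the Hoxa10 difference was -2.74 and passed (adjusted p = 0.0376). At day 7 limma called 1 gene (0.00834%), Cnmd, and no Hox gene, with Hoxa10 at -2.16 ± 0.49 and Hoxc10 at -1.60 ± 0.38. With array weights Hoxa10 and Hoxc10 passed at day 7 (limma adjusted p = 0.0298 and 0.0109). With only the 4 groups compared in the fit, Hoxc10 and Hoxd10 passed (limma adjusted p = 0.0214 and 0.0433). Without KO sham replicate 2, 1, 0 and 0 Hox genes passed at days 1, 3 and 7, with Hoxa10 at -2.54 on day 1 (adjusted p = 0.0236). All of these differences contain the sham difference of the same gene.

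**Figure D3:**
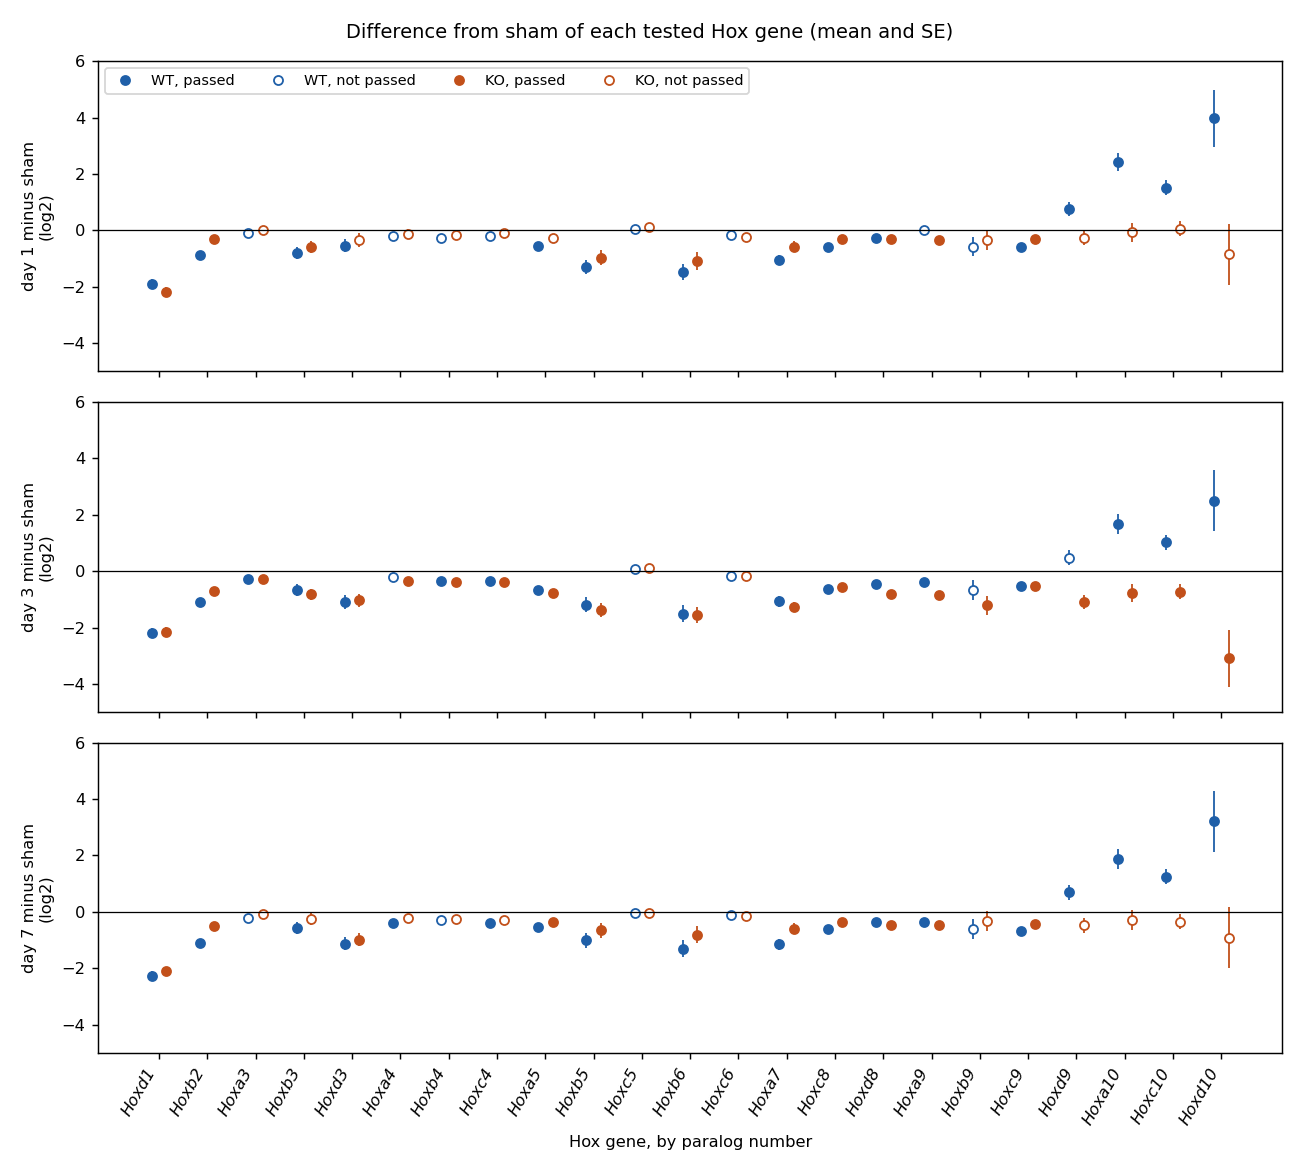
Log2 difference from sham cord of the same genotype for each tested Hox gene, ordered by paralog number, at days 1, 3 and 7 (points, WT blue and KO orange, filled where the gene passed in limma) with its standard error (bars). Hoxa10, Hoxc10 and Hoxd10 lie above 0 in WT cord on all 3 days, while the genes from Hoxd1 to Hoxc9 lie near or below 0 in both genotypes.

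Of the 5 tested genes of paralogs 1 to 3, 4, 5 and 4 were lower in WT cord at days 1, 3 and 7 and 3, 5 and 3 in KO cord, and none was higher. Of all genes, 32.5%, 37.4% and 33.3% were lower in WT cord and 27.3%, 38.8% and 31.0% in KO cord. The shares higher were 27.1%, 29.5% and 25.8% in WT cord and 23.7%, 30.9% and 23.5% in KO cord. In this bulk tissue, fewer cells of a type and less RNA per cell cannot be told apart. Hoxd1 read 5.30, 5.03, 5.45 and 5.56 on the WT sham arrays and 5.28, 5.25, 5.14 and 4.93 on the KO sham arrays. These were the only 8 of 34 arrays on which it was above background. It was at least 2.52-fold lower on each day in WT cord and at least 2.22-fold lower in KO cord (differences from -2.26 to -1.89, limma adjusted p at most 7.65e-11 over the 6 comparisons). Hoxb2, a hindbrain and cervical gene, fell by 0.86, 1.10 and 1.12 in WT cord at days 1, 3 and 7 and by 0.31, 0.69 and 0.51 in KO cord (SE 0.12 to 0.13). Its KO day 1 call (adjusted p = 0.0485) was lost in 21 of 34 fits that left out 1 array, with differences from -0.31 to -0.25. Hoxb3 fell at all times but day 7 in KO cord (-0.24 ± 0.22), with -0.79 ± 0.21 in WT and -0.60 ± 0.22 in KO cord at day 1.

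Hoxd3 fell by 0.54 ± 0.23, 1.10 ± 0.24 and 1.13 ± 0.24 in WT cord, and in KO cord by 1.03 ± 0.23 at day 3 and 0.98 ± 0.24 at day 7, while its KO day 1 difference of -0.35 ± 0.24 did not pass. Hoxa3 fell at day 3 only, by 0.27 ± 0.11 in WT and 0.26 ± 0.11 in KO cord, and with the mean of its 4 probe sets these were 0.06 and 0.07 and did not pass. By the probe sets used, all 5 tested genes of paralogs 1 to 3 were thus lower at day 3 in both genotypes. The other Hoxa3 probe set that was above background on all 34 arrays was not lower at day 3. Its means in sham and day 3 cord were 4.36 and 4.42 in WT and 4.37 and 4.39 in KO mice. Among the smaller falls, that of Hoxd3 at WT day 1 was lost without WT day 1 replicate 1, 2 or 4 or WT sham replicate 2, 3 or 4 (-0.59 to -0.43), and that of Hoxb3 at WT day 7 without WT day 7 or WT sham replicate 2. The Hoxb3 call at KO day 1 was lost without KO day 1 replicate 1 or 3 or KO sham replicate 1. The Hoxa3 calls were lost without any of WT day 3 replicates 1 to 3, WT sham replicates 2 and 3, KO day 3 replicates 3 and 4 or KO sham replicate 4.

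Paralogs 4 to 7 held genes that fell in every comparison and genes that passed in none. Hoxb5 and Hoxb6, which lie side by side, fell in every comparison. Hoxb6 read 8.78, 8.94, 8.87 and 8.87 on WT sham arrays and 7.45, 7.80, 7.80, 6.32 and 7.56 at day 1. Its groups did not overlap, as for 53.2% of all genes. It fell by 1.48 ± 0.29, 1.51 ± 0.30 and 1.31 ± 0.30 in WT cord and by 1.09 ± 0.30, 1.56 ± 0.29 and 0.80 ± 0.30 in KO cord. The Hoxb5 differences were -1.30 ± 0.25 at day 1 and -1.19 ± 0.27 at day 3 in WT cord and -0.97 ± 0.27, -1.38 ± 0.25 and -0.65 ± 0.27 in KO cord. The KO day 7 call of Hoxb5 was weak (adjusted p = 0.042) and was lost in 8 of 34 fits that left out 1 array, each of the KO day 7 or KO sham arrays in turn, with values from -0.67 to -0.62.

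Hoxa7 fell in all 6 comparisons, by 1.06 to 1.15 in WT cord and by 0.59 to 1.26 in KO cord. Its KO day 1 call was lost without KO day 1 replicate 1, and the KO day 7 call of Hoxb6 without KO day 7 replicate 1 or 4 or KO sham replicate 1. Hoxa5, needed for phrenic motor neurons and breathing, read 8.71 to 8.88 on WT sham arrays and 7.93 to 8.40 at day 1. It fell by 0.57 ± 0.12, 0.65 ± 0.13 and 0.55 ± 0.13 in WT cord, and in KO cord by 0.79 ± 0.12 at day 3 and 0.37 ± 0.13 at day 7. Its KO day 1 difference of -0.29 ± 0.13 did not pass (limma adjusted p = 0.0625). Its other probe set fell in parallel, from 8.62 in WT sham cord to 8.09, 7.96 and 8.10.

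Hoxb4, Hoxc4 and Hoxa4 passed in a few comparisons each. Hoxc4 fell by 0.33 and 0.41 in WT cord at days 3 and 7 and by 0.40 in KO cord at day 3 (SE 0.12). Hoxb4 fell by 0.36 ± 0.14 in WT and 0.40 ± 0.13 in KO cord at day 3. It read 6.215 on WT day 1 replicate 5, WT day 3 replicate 4, KO day 3 replicate 2 and WT day 7 replicate 1. Hoxa4 likewise read 4.176 on WT day 3 replicates 1, 2 and 4, among other arrays. Whether such repeated values are a floor of the probe set was not tested, so the sizes of the Hoxb4 and Hoxa4 falls are uncertain. The WT day 3 calls were lost for Hoxc4 without WT day 3 replicate 3 and for Hoxb4 without WT sham replicate 2 or 3. Hoxa4, at 4.46 ± 0.40 in WT sham cord, was close to background and fell by 0.40 ± 0.15 at day 7 in WT and 0.35 ± 0.14 at day 3 in KO cord, calls that were lost without WT day 7 replicate 3 or 4 or WT sham replicate 4 (down to -0.21), and without KO day 3 replicate 1 or 2 or KO sham replicate 4 (down to -0.17). Hoxc5 and Hoxc6, which with Hoxa5 and other genes pattern cervical and brachial motor neurons, passed in no injury comparison. Hoxc5 differed from sham by -0.05 to 0.11 and Hoxc6 by -0.24 to -0.10, and Hoxc6 was above log2 4 on 5 of 34 arrays.

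Paralogs 8 and 9 fell in part. Hoxc8 and Hoxc9, which specify brachial and thoracic motor columns, passed in every injury comparison. Hoxc8 read 11.05, 11.04, 11.18 and 11.03 on WT sham arrays and 10.94, 10.82, 10.94 and 10.79 on KO sham arrays. It read at most 10.70 on every injured array, so that sham and injured arrays did not overlap. In the single injury comparisons, 53.2% to 62.6% of all genes did not overlap either. Hoxc8 fell by 0.57 to 0.64 in WT cord and by 0.30 to 0.56 in KO cord (SE 0.09). Hoxc9 fell by 0.58, 0.52 and 0.66 in WT cord and by 0.31, 0.54 and 0.43 in KO cord (SE 0.11). Hoxd8 fell in all 6 comparisons too, least at WT day 1 (-0.27 ± 0.11, adjusted p = 0.0409), a call lost without WT day 1 replicate 1, 2 or 5 or WT sham replicate 1, 2 or 4 (-0.27 to -0.23).

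Hoxa9 differed by 0.01 ± 0.12 at WT day 1 and fell in the other 5 comparisons, by 0.33 to 0.84. Its WT day 7 call was lost without WT sham replicate 1 or 2. At KO day 1 the calls were lost without KO day 1 replicate 1 or KO sham replicate 1 for Hoxa9, Hoxc9 and Hoxd8, without KO sham replicate 2 for Hoxa9 and Hoxd8, and without KO day 1 replicate 4 for Hoxd8. Hoxb9 fell in KO cord at day 3 by 1.21 ± 0.34 (adjusted p = 0.00253) and passed in no other comparison. On KO day 3 replicates 3 and 4 it read 5.61 and 6.62, and on the other KO day 3 arrays at least 7.66. The median difference over the 23 Hox genes was -0.27, -0.47 and -0.41 in WT cord and -0.30, -0.79 and -0.37 in KO cord at days 1, 3 and 7, against -0.05 to -0.06 over all genes. Neuron genes fell beside them, with 10, 16 and 16 of 16 lower in WT cord and 3, 16 and 14 in KO cord. Their part in the falls of Hox genes was not tested.

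After injury no Hox gene passed between KO and WT cord. In limma 0 of 23 passed at each day (0.859%, 0.0334% and 0.0334% of all genes did, 0.192%, 0.0167% and 0.0167% higher and 0.667%, 0.0167% and 0.0167% lower). At day 1 Hoxa10 differed by 0.10 ± 0.33, Hoxc10 by 0.35 ± 0.25, Hoxd9 by 0.31 ± 0.25 and Hoxd10 by 0.70 ± 1.02. Every one of these was under the sham difference of its gene. At day 3 the same genes differed by 0.16 ± 0.33, 0.07 ± 0.25, -0.24 ± 0.25 and -0.08 ± 1.02, and at day 7 by 0.45 ± 0.35, 0.21 ± 0.27, 0.16 ± 0.26 and 1.39 ± 1.08. The genes with an unadjusted p under 0.05 were Hoxd1, Hoxa5 (0.28 ± 0.12) and Hoxb2 (0.27 ± 0.12) at day 1, Hoxa7 (-0.53 ± 0.18) at day 3 and Hoxb2 (0.31 ± 0.13) at day 7. The share of all genes under that unadjusted limit was not counted, so these genes are named as a description. Hoxd1 was under background on every day 1 array of both genotypes, so its difference is not given. The KO and WT ranges did not overlap for 0, 0 and 5 of the 23 Hox genes at days 1, 3 and 7. Of all genes, 5.01%, 0.792% and 8.73% did not overlap. The 5 at day 7 were Hoxb2, Hoxb3, Hoxb5, Hoxb6 and Hoxc10, all with KO higher.

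**Figure D4:**
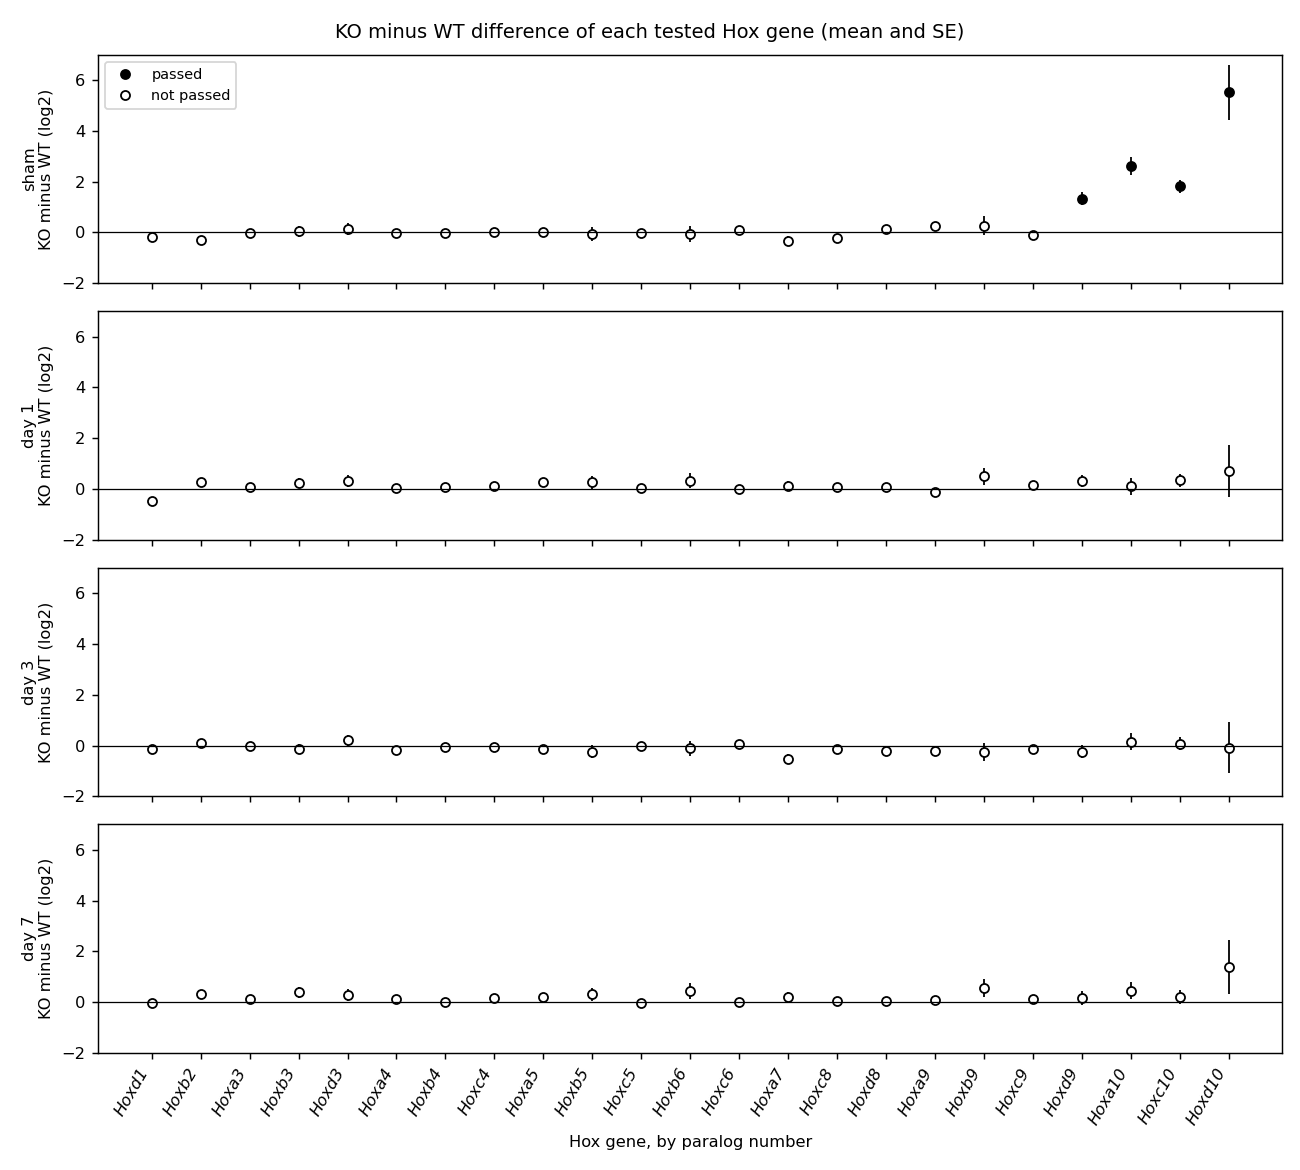
KO minus WT log2 difference of each tested Hox gene, ordered by paralog number, in sham cord and at days 1, 3 and 7 (points, filled where the gene passed in limma) with its standard error (bars). Filled points are in the sham panel, for Hoxd9, Hoxa10, Hoxc10 and Hoxd10, at 1.33 to 5.51.

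Arrays of the same group also differed from each other in these genes. The pooled SD within groups was 1.59 for Hoxd10, 0.53 for Hoxb9, 0.51 for Hoxa10, 0.45 for Hoxb6 and 0.39 for Hoxc10, against a median of 0.18 over all genes tested. Hoxd10 was at the 99.7th percentile of all genes. Hoxc8, with a higher signal, had an SD of 0.13. The mean of Hoxa10, Hoxc10 and Hoxd10, each centred on its mean over all arrays, ran from -2.85 to -1.67 on WT sham arrays and from 0.63 to 1.32 on KO sham arrays. In injured cord it reached the WT sham range on WT day 3 replicate 3 (-1.71) and KO day 3 replicate 3 (-1.74), with KO day 3 replicate 4 at -1.44. Its highest value was 1.53, on KO day 1 replicate 3.

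Over 34 arrays, the deviations of the caudal genes from their group means were positively correlated. Hoxa10 and Hoxc10 deviated with r = 0.846 (Spearman rho = 0.842), Hoxa10 and Hoxd10 with r = 0.555 (0.612), Hoxc10 and Hoxd10 with r = 0.745 (0.783), and Hoxd9 and Hoxa10 with r = 0.855 (0.778). These genes lie in 3 different clusters. Hoxc10 and its cluster neighbour Hoxc9 gave r = 0.115 (-0.045), and Hoxc10 and Hoxa9, which has the same number as Hoxc9, gave r = 0.791 (0.734). Hoxb5 and Hoxb6, neighbours of 1 cluster, gave r = 0.891 (0.791), and Hoxd9 and Hoxd8 r = 0.787 (0.717). Without the 2 arrays farthest from the median of the first gene, r was 0.827, 0.603, 0.781, 0.786, -0.041, 0.672, 0.845 and 0.811 in the same order. Hoxa9 also deviated with Hoxa10 at r = 0.678 and with Hoxd9 at r = 0.672. Without KO sham replicate 2, r was 0.856 for Hoxa10 and Hoxc10, 0.559 for Hoxa10 and Hoxd10 and 0.789 for Hoxc10 and Hoxa9.

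Hoxb9, a thoracic gene, deviated with Hoxb5 (r = 0.927), Hoxa5 (0.924), Hoxb3 (0.901) and Hoxb6 (0.887). The caudal genes were not separate from these, since Hoxd10 and Hoxa5 gave r = 0.614, Hoxc10 and Hoxb6 0.600 and Hoxc10 and Hoxb9 0.585, all above the 0.555 of Hoxa10 and Hoxd10. Over all pairs, the median r was 0.343 over 20 pairs of the same paralog number, 0.418 over 52 pairs one number apart, 0.405 over 70 pairs 2 to 3 apart and 0.335 over 111 pairs 4 or more apart. The points share arrays, on which neuron genes also vary, so these values are descriptions.

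**Figure D5:**
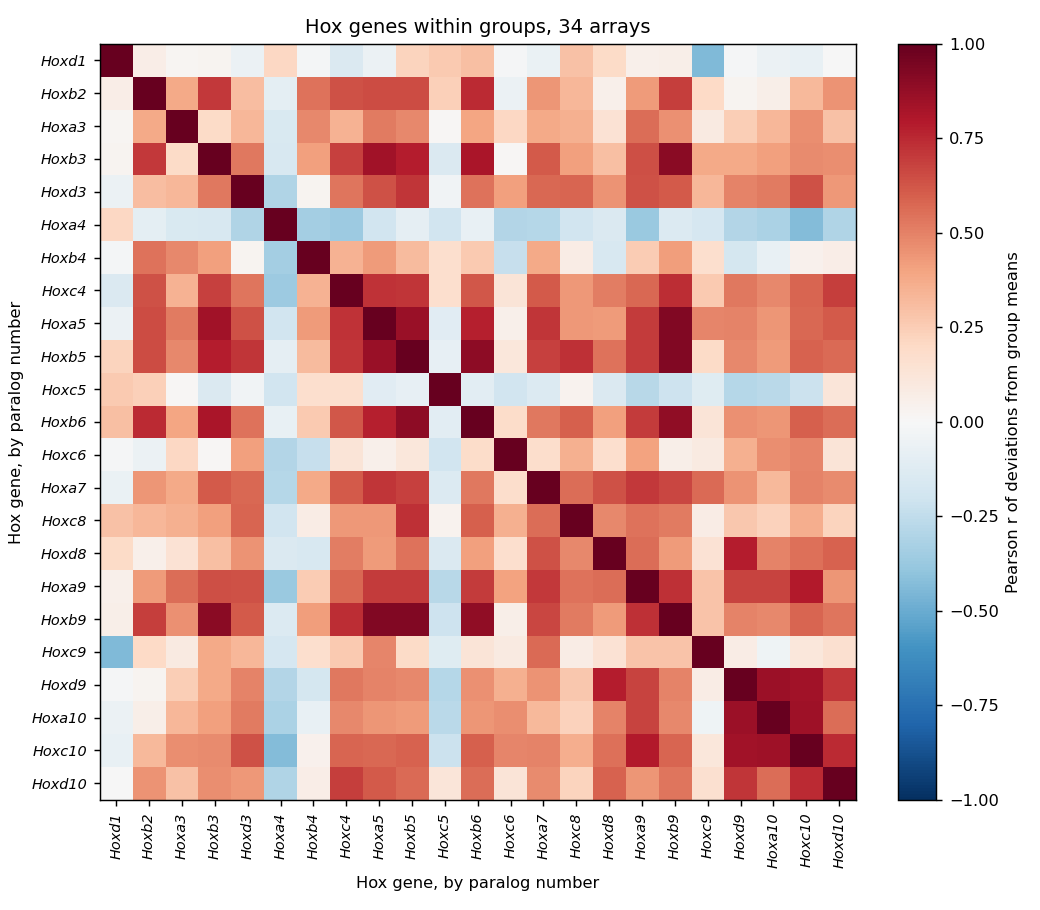
Pearson r between the deviations of each pair of tested Hox genes from their group means over 34 arrays, with genes ordered by paralog number on both axes. Hoxd9, Hoxa10, Hoxc10 and Hoxd10 have values from 0.555 to 0.855 with each other, in the lower right corner, and Hoxb9 has values from 0.887 to 0.927 with Hoxb3, Hoxa5, Hoxb5 and Hoxb6. High values also join the caudal genes to others, as for Hoxc10 and Hoxa9 (0.791).

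Outside the Hox family, likeness to the paralog 10 mean was measured as r between deviations from the group means over 34 arrays. The genes were not scaled to equal spread, so Hoxd10, with an SD of 1.59 within groups, weighs most in that mean. Hoxd10 itself had r = 0.958 with it, against 0.888 for Hoxc10 and 0.763 for Hoxa10, and was above background on 26 of 34 arrays. Of 11970 genes, r was highest for Clvs1, a neuronal vesicle protein (0.891), followed by Galntl6 (0.830), Lrrc49 (0.825), Calb2, which encodes calretinin (0.818), A930009L07Rik (0.817), Camk1d, a calcium-dependent kinase (0.809), Pcdh19, a protocadherin (0.798), Atrnl1 (0.795), Zfyve9 (0.795) and Atpaf1 (0.790). The median over all genes was -0.021. The lowest were Dmkn (-0.758), Glis3 (-0.744), Nup160 (-0.740), Serp1 (-0.740) and Slc11a1, a phagocyte metal transporter (-0.739). These 15 were picked by r, so their values are no test. In sham cord, Clvs1 stood at 10.64 ± 0.07 in WT and 11.10 ± 0.14 in KO cord (n = 4 each), a difference of 0.46 ± 0.21 that did not pass (limma adjusted p = 1), and none of the other 14 passed either.

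Genes that work with Hox proteins or maintain their pattern were taken as whole lists, and none of them passed between the sham groups. Over all genes, 27.1%, 29.5% and 25.8% were higher and 32.5%, 37.4% and 33.3% lower in WT cord at days 1, 3 and 7, and 23.7%, 30.9% and 23.5% higher and 27.3%, 38.8% and 31.0% lower in KO cord, and the list counts are to be read against these shares. Of 6 tested cofactors, which bind DNA jointly with Hox proteins, 2 fell and 1 rose in WT cord at day 1 and 5 fell at days 3 and 7. In KO cord 3 fell on each day and 1 rose at day 1. Pbx3 fell by 0.76 ± 0.08, 0.69 ± 0.08 and 0.65 ± 0.08 in WT cord and by 0.73 ± 0.08, 0.78 ± 0.08 and 0.58 ± 0.08 in KO cord. Pknox2 fell in all 6 comparisons, and Meis2 fell by 1.02 ± 0.14 in KO cord at day 3. The gene that rose was Pknox1, by 0.33 ± 0.07 in WT and 0.34 ± 0.07 in KO cord at day 1.

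Of 22 tested Polycomb and trithorax genes, 6, 5 and 4 rose and 7, 7 and 8 fell in WT cord at days 1, 3 and 7, and 5, 4 and 3 rose and 7, 9 and 6 fell in KO cord, counts near or under those shares of all genes. Ezh2, the Polycomb methyltransferase of dividing cells, rose by 1.08 ± 0.12, 1.86 ± 0.12 and 1.08 ± 0.12 in WT cord and by 0.63 ± 0.12, 2.07 ± 0.12 and 0.95 ± 0.12 in KO cord. Its counterpart Ezh1 fell by 0.54 ± 0.08, 0.55 ± 0.08 and 0.43 ± 0.08 in WT cord. Ezh2 was lower in KO than in WT cord at day 1 by 0.51 ± 0.12 (limma adjusted p = 0.0294), and no gene of the list passed between the sham groups. Proliferation genes rose beside Ezh2, with 10 of 11 higher in WT and 4 of 11 in KO cord at day 1.

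Of 16 genes of axial patterning signals, such as retinoic acid and Cdx factors, 6 were tested, and none passed between the sham groups. In WT cord 1, 2 and 3 rose and 0, 1 and 1 fell at days 1, 3 and 7, and in KO cord 0, 2 and 2 rose and none fell. Aldh1a2, which makes retinoic acid and is also a meningeal marker, rose by 2.27 ± 0.63, 2.96 ± 0.66 and 1.98 ± 0.66 in WT cord and by 1.71 ± 0.63 and 1.85 ± 0.66 in KO cord at days 3 and 7. Cyp26b1, which degrades retinoic acid, rose by 1.31 ± 0.36 in WT and 1.37 ± 0.36 in KO cord at day 7. Fibroblast and meningeal genes rose beside them, with 10 of 12 higher at day 7 in both genotypes.

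Of 10 tested genes of motor columns and motor neurons, on which Hox proteins act in the embryo, none passed between the sham groups. In WT cord 5 rose on each day and 3, 4 and 4 fell, and the falls were near the 32.5%, 37.4% and 33.3% of all genes. Runx1, a motor neuron and blood cell factor, rose by 3.74 ± 0.26, 3.96 ± 0.28 and 4.35 ± 0.28 in WT cord, while 9, 10 and 10 of 12 macrophage genes rose on the same days. Gfra1 and Ret, which form the receptor of the growth factor GDNF, rose by 1.14 ± 0.09 and 0.89 ± 0.12 at day 1. Nos1, expressed by autonomic motor neurons, fell by 1.10 ± 0.15 in WT cord at day 3, and Isl1, a motor neuron factor, by 0.84 ± 0.17 in KO cord at day 3. In KO cord 5, 4 and 3 of the 10 rose and 2, 4 and 4 fell.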

How the data were processed

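Gene expression in spinal cord was measured on 34 Affymetrix arrays, after a Trizol extraction, per the labels. The authors deposited one log2 value per probe set and array. GCRMA is named in the submitters' processing notes, with no version, and the deposited values were not rescaled. GCRMA normalises by quantiles, which can hide a shift common to all genes, and dim probe sets share a low floor. The genome build is not given in the sources used here. Of 45101 probe sets, 34945 had 1 gene symbol, 932 several and 9160 none, and 64 were controls.

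For each of 18193 genes the brightest probe set on average was kept, and the 11993 genes that exceeded log2 4 on 4 or more arrays were tested. Models with 1 mean for each of 8 groups were fitted in R 4.3.3 with limma 3.58.1 (lmFit, eBayes), with Benjamini-Hochberg adjustment and a threshold of 0.05. The fit was tested on simulated data. Arrays, with 4 or 5 a group, limit the precision.

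The members and gene lists were chosen with earlier results of these data known. All tested Hox genes are named, and from each other list those with the smallest p, plus the 10 genes most and 5 least like the paralog 10 mean. Replicate numbers gave no sign of pairing. Of 113 pairs of arrays with the same number, 26 had deviations correlated over 0.1, with a median of 0. Of 392 pairs with other numbers, 102 did, with a median of -0.01. Alternatives covered the filter, probe sets, floor, scaling, weights, prior, block, groups fitted and leaving out each array. Promoter sequences are from RefSeq, GRCm38.p6.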

Additional observations from a re-analysis of the deposited data

Results flagged for a closer look

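The day 1 response of Hoxa10 differed between the genotypes by the test of the difference itself, at -2.50 ± 0.48 (limma adjusted p = 0.0141). With the settings used throughout, no other Hox gene passed in such a difference, on any of the 3 days.

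Of 184 groups of arrays, 8 for each tested Hox gene, 18 held an array far from the others of its group. The limit used sets apart about 1 in 20 groups of independent, normally spread values. Here the genes share arrays and vary together, and Hoxc5 and Hoxa4 repeat a value, so the 18 cannot be set against that rate. Most of the 18 gaps were under 0.5. Hoxd10 on KO sham replicate 1 was 6.73, against 8.10 to 8.33 on the other 3. Hoxb6 on WT day 1 replicate 4 was 6.32, against 7.45 to 7.80, and Hoxb2 on the same array was 5.04, against 5.52 to 5.63. Hoxb3 on WT day 3 replicate 3 was 8.16, against 8.66 to 8.75. On the same array Hoxa4 was 4.43, against 4.18. Hoxa4 on WT day 1 replicate 2 was 4.57, against 4.16 to 4.18.

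In sham cord, Hoxc4 on WT replicate 4 was 8.44, against 8.67 to 8.71, and Hoxc8 on WT replicate 3 was 11.18, against 11.03 to 11.05. On KO day 3 replicate 3, Hoxb4 was 5.94, against 6.20 to 6.28, and Hoxc5 was 5.52, against 5.11 to 5.14. At day 7, Hoxa5 on WT replicate 4 was 8.45, against 8.18 to 8.21. On KO replicate 1 Hoxb2 was 5.46, against 5.54 to 5.55, and on KO replicate 3 Hoxc9 was 7.00, against 7.13 to 7.15.

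Hoxc5 holds the same value, 5.12, on many arrays, so small departures stand out. It was 5.39 on WT day 1 replicate 3, 5.45 on WT day 3 replicate 4 and 5.04 on KO sham replicate 4. Hoxc6, close to background, was 3.49 on WT day 3 replicate 2, against 3.79 to 3.80, and 4.05 on KO day 3 replicate 2, against 3.69 to 3.79.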

How the results depend on the processing

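Of 98 calls of a Hox gene in a comparison, 68 held in all 34 fits without 1 array and all other alternatives that could be fitted, and 30 were lost in at least 1. The stricter filter left out Hoxa4. At KO day 7, 17 genes passed instead of 11 when arrays were quantile normalised again, and 17 with only the groups compared in the fit. Between the sham groups 1 passed instead of 4 with only those groups in the fit. In the day 1 genotype difference 2 passed with array weights and 0 with only the groups compared, instead of 1, in the day 3 difference 1 instead of 0 with values under 4 set to 4, and in the day 7 difference 2 instead of 0 with array weights and 2 with only the groups compared. Without 1 array, 13 to 15, 15 to 19 and 16 to 19 passed in WT cord at days 1, 3 and 7, 4 to 11, 18 to 21 and 9 to 12 in KO cord, 2 to 4 between the sham groups, 0 to 0 between the genotypes at days 1, 3 and 7, and 0 to 2, 0 to 1 and 0 to 0 in the genotype differences of days 1, 3 and 7. Scaling moved the median of all genes by under 0.1. The causes were not tested.

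With the replicate number as a block, though it gave no sign of pairing, 3 Hox genes passed between the sham groups (Hoxd10 at limma adjusted p = 0.0522), 9 at KO day 1, and as many as without it elsewhere.

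Reversed values all concern differences that passed in no fit, and fits without 1 array are given as lowest to highest. At KO day 1 minus sham these ran from -0.20 without KO day 1 replicate 3 to 0.15 (0.148) without KO day 1 replicate 1 for Hoxa10, with 0.005 without KO sham replicate 4. They ran from -0.04 (-0.040) to 0.20 (0.204) for Hoxc10, with -0.020 and -0.037 in between, and from -1.30 to 0.07 (0.075) for Hoxd10, without KO day 1 replicates 3 and 1. For KO minus WT, Hoxa10 ran from -0.02 (-0.021, and -0.019) without KO replicates 3 and 4 to 0.33 (0.325) at day 1 and from -0.13 (-0.131) without WT replicate 3 to 0.37 (0.374) at day 3. Hoxc10 at day 3 ran from -0.08 (-0.085) to 0.32, with -0.004, -0.056 and -0.068 without KO replicates 1, 2 and 5, and was -0.015 with the block. Hoxd9 at day 3 was 0.19 (0.193) with array weights. Hoxd10 at day 3 ran from -0.90 (-0.902) without WT replicate 3 to 0.57 (0.566) without KO replicate 4, with 0.39 (0.394), 0.54 (0.538) and 0.46 (0.464) without WT replicates 2 and 4 and KO replicate 3, and was 0.16 with values under 4 set to 4 and 1.61 with array weights.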

Other observations

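Of 3 antisense genes of the Hox clusters on the array, Hoxb5os and Hoxd3os1 were above background on all 34 arrays and Hoxa11os on none. Hoxb5os stood at 7.76 ± 0.22 in WT and 7.71 ± 0.21 in KO sham cord (n = 4 each). It fell by 1.02 ± 0.22 and 0.94 ± 0.23 in WT cord at days 1 and 3 and by 0.77 ± 0.23 and 0.91 ± 0.22 in KO cord (limma adjusted p from 0.000335 to 0.00824). At day 7 it was 7.44 ± 0.22 in WT and 7.67 ± 0.12 in KO cord, and the differences from sham of -0.32 ± 0.23 and -0.04 ± 0.23 did not pass. Hoxd3os1 fell by 0.71 ± 0.13 at day 3 and 0.71 ± 0.13 at day 7 in WT cord and by 0.71 ± 0.12 and 0.58 ± 0.13 in KO cord. Neither passed between the sham groups, at -0.05 and 0.02. Strand on the array is that of each probe set, and an overlap with the coding genes was not tested.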
